A study of Mus musculus with 6 samples.

Results

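The genes described here are 10 genes of major histocompatibility complex (MHC) class I antigen presentation: B2m, H2-K1, H2-D1, Tap1, Tap2, Tapbp, Psmb8, Psmb9, Psmb10 and Nlrc5. They were chosen by symbol: every probe set, a group of short probes for a transcript, whose platform annotation names just 1 of these genes and no other. All 10 genes were found, on 27 of 45037 non-control probe sets, among 18193 genes with a probe set of their own. Where a gene had several, its brightest by mean log2 value leads. All 10 leading probe sets passed the filter on dim signals (a mean log2 value of at least 4.97, which left 13090 genes to test), and 23 of the 27 probe sets did. A further 3 probe sets carry a member's symbol beside another class I symbol and were not counted as members.

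The RNA came from MVT1 cells, a metastatic mouse mammary tumour line, tagged with green fluorescent protein (GFP) and injected intravenously into FVB/N mice, the same strain in all groups. The GFP-positive cells were sorted from metastatic lungs and labelled as tumour epithelial cells, and 2 µg of total RNA per array went onto Affymetrix mouse expression arrays. The 6 arrays form 3 groups of 2: cells sorted 1 week after injection from vehicle-treated mice, cells sorted at 2 weeks from vehicle-treated mice, and cells sorted at 2 weeks from mice gavaged daily with 160 mg per kg of GW2580, an inhibitor of the receptor for colony-stimulating factor 1, CSF1R. Gavage began 1 week after injection. The design text gives 2 mice for each vehicle group and no mouse number for GW2580, and MVT1 is a single line, so p-values measure the spread between these arrays only. The sources used here do not give the age of the mice.

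MHC class I molecules carry short peptides from inside the cell to its surface, where CD8 T cells read them. The proteasome cuts proteins into peptides, and interferon exchanges its standard catalytic subunits for Psmb8, Psmb9 and Psmb10, giving the immunoproteasome. The Tap1-Tap2 transporter moves peptides into the endoplasmic reticulum, tapasin (Tapbp) bridges it to empty class I molecules, and the heavy chains H2-K1 and H2-D1 leave for the surface with the light chain beta-2 microglobulin (B2m). Nlrc5 is a transcriptional coactivator of these genes. Tumours that lose expression of this pathway are less visible to T cells.

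The members did not share 1 pattern. The leading heavy chain and B2m probe sets differed by at most 0.20 log2 units between groups. They read near the top of the array's range, where a change may be compressed. Dimmer heavy chain sets were mixed: some differed by more and others stayed within 0.20. The part of that limit was not tested. Psmb8, Psmb9, Tap1, Tap2 and Nlrc5 read 0.72 to 1.09 log2 units higher with GW2580 than at 1 week. Their lowest group mean was at 1 week, as it was, by smaller margins, for B2m, H2-K1 and H2-D1. Psmb10 went another way: it fell from 1 to 2 weeks under vehicle, and with GW2580 it read at its 1-week level. Psmb10 between 1 and 2 weeks was the only member to pass an adjusted p of 0.05 with limma in any of the 3 comparisons. Levels below are log2 values made by the RMA method and deposited by the authors, so a difference of 1 is 2-fold. Errors of differences are standard errors (SE) from limma, fitted over all 6 arrays, with Benjamini-Hochberg adjustment over 13090 genes.

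The arrays of a group correlated at r = 0.988 to 0.9921 over the genes tested, and array medians lay between 5.57 and 5.63. Arrays have no read depth, and their number limits precision. Replicate 2 of the 2-week vehicle group stood apart in its control probe sets. Its 3' minus 5' gap was 1.20 for beta-actin, where the rest had 0.38 to 0.50, and 0.92 for Gapdh, where the rest had -0.13 to -0.10. Replicate 1 of the 1-week group read 10.2 for the BioB hybridisation control, against 8.89 to 9.14 elsewhere. Of 12 epithelial markers for the labelled cell type, 8 passed the filter. Krt8 and Krt18, keratins of simple epithelium, read between 12.9 and 13.8 on all arrays. Cdh1 (E-cadherin) read between 3.49 and 3.99 and Esrp1, an epithelial splicing factor, between 3.56 and 3.86, both below the filter.

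**Figure D1:**
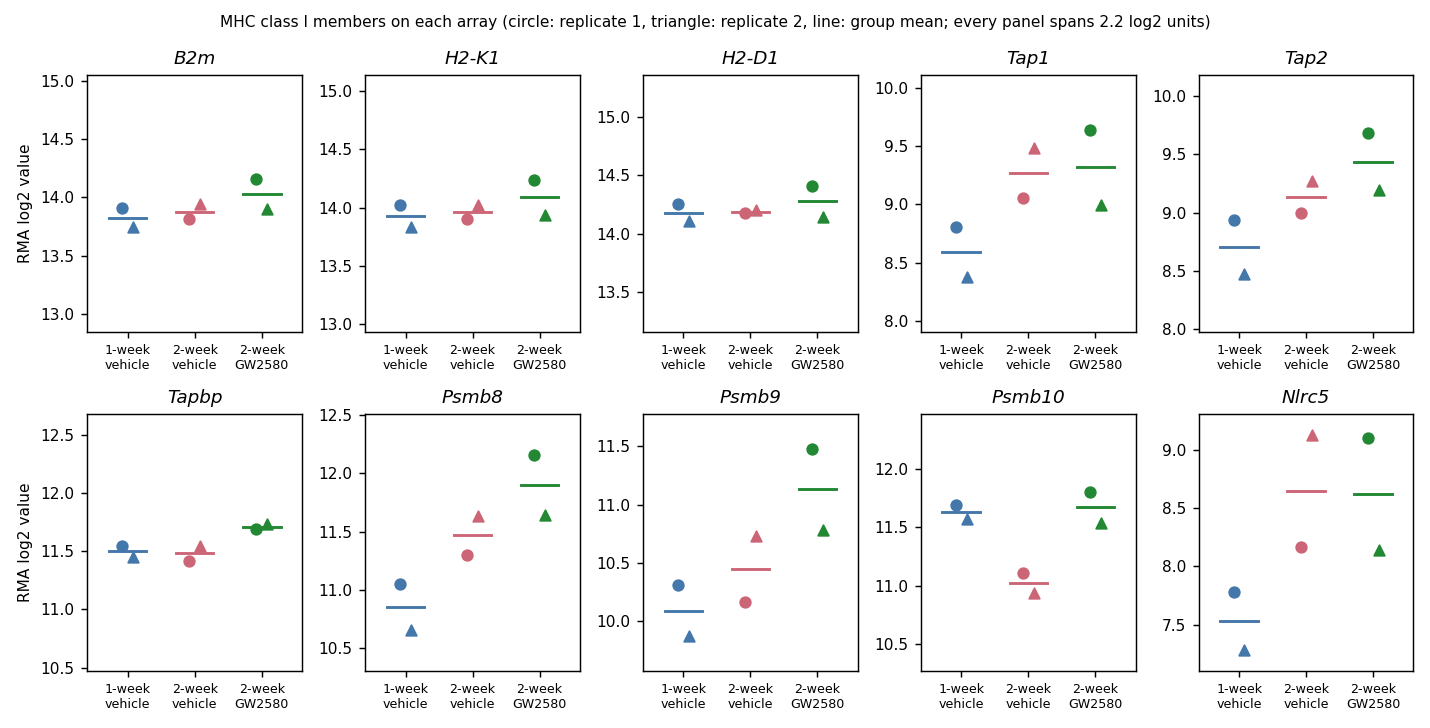
The RMA log2 value of each member's leading probe set on every array, with circles for replicate 1, triangles for replicate 2 and a line at the mean of each group's 2 arrays; each panel spans 2.2 log2 units, so slopes can be compared. The B2m, H2-K1 and H2-D1 points overlap between groups. The GW2580 points of Tapbp, Psmb8 and Psmb9 are above all others, for Psmb8 only by 11.64 against 11.63. Psmb10 is lowest in the 2-week vehicle group, at a mean of 11.02.

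The promoters of H2-K1, H2-D1 and B2m are shown because these 3 genes, the parts of the class I molecule itself, had some of the smallest differences. They are RefSeq windows of GRCm38.p6 from 250 bases before to 50 bases after the gene's start, found for 8 of the 10 members. Capitals mark matches, on either strand, to 4 motifs: the kappa-B consensus of NF-kappa-B factors, GAANNGAAA (an interferon-stimulated response element core), TGACG (the core bound by CREB and ATF factors) and ATTGG (an inverted CCAAT box). H2-K1 lies at chr17:34000298-34000597, minus strand, H2-D1 at chr17:35262844-35263143, plus strand, and B2m at chr2:122147437-122147736, plus strand.
H2-K1: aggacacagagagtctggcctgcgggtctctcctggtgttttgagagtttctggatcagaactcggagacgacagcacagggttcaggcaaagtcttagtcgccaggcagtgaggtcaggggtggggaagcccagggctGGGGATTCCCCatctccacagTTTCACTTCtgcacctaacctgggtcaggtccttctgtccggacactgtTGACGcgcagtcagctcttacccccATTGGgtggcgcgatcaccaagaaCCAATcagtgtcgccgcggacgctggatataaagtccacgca
H2-D1: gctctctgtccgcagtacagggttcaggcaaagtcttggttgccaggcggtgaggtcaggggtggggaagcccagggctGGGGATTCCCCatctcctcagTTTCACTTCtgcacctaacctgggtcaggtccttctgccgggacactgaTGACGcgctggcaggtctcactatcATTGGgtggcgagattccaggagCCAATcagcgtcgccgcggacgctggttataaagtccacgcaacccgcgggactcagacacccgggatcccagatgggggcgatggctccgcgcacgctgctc
B2m: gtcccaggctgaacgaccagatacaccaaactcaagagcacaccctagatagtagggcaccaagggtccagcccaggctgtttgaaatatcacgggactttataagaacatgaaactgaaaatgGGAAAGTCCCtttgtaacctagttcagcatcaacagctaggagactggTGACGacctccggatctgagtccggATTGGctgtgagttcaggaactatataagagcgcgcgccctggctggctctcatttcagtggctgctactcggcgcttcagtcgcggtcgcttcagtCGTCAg
The kappa-B matches in both heavy chain windows are 2 that overlap by all but 1 base and read on either strand. Both windows hold all 4 motifs, in the same order. Over 32851 promoter windows of this length 16 (0.0487%) hold all 4 in any order, both H2-K1 entries included. The 4 motifs were chosen after these windows were read, so this share is a description and tests nothing. The 2 H2-K1 entries overlap, and the H2-K1 and H2-D1 windows are 73.3% identical over 240 bases aligned without gaps. The longest stretch the H2-K1 and H2-D1 windows share without a mismatch is 47 bases. B2m holds 3 of the 4, without a match to GAANNGAAA. Its window does read gaaactgaaa shortly before the kappa-B match, a spacing 1 base wider that was not searched. The missing match therefore does not show that B2m lacks such an element. Over all windows the kappa-B consensus was found in 8.46%, GAANNGAAA in 7.52%, TGACG in 20.8% and ATTGG in 37.4%. The RefSeq sequence is that of C57BL/6J mice, which carry another MHC haplotype than FVB/N.

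H2-K1 encodes a classical heavy chain. Its leading probe set read 14.03 and 13.83 at 1 week, 13.91 and 14.02 at 2 weeks with vehicle, and 14.24 and 13.94 with GW2580. H2-D1, the other classical heavy chain here, read 14.26 and 14.11, then 14.18 and 14.20, then 14.41 and 14.15. The 3 groups overlapped for both genes, and the highest value of any probe set on these arrays lay between 14.6 and 14.7. From 1 to 2 weeks under vehicle H2-K1 differed by 0.03 (SE 0.15) and H2-D1 by 0.0090 (SE 0.14), and the sign of both turned when arrays were set to a common 75th percentile. GW2580 differed from vehicle at 2 weeks by 0.13 for H2-K1 (95% interval -0.22 to 0.47) and by 0.09 for H2-D1 (-0.23 to 0.41). Without replicate 1 of GW2580 these became -0.027 and -0.043.

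B2m, whose product is the light chain of all these molecules, read 13.91 and 13.74 at 1 week, 13.81 and 13.94 at 2 weeks with vehicle, and 14.15 and 13.90 with GW2580. The groups overlapped in every comparison. The difference was 0.05 (SE 0.14) over time, 0.15 (95% interval -0.18 to 0.48) for GW2580 against 2-week vehicle and 0.20 (-0.13 to 0.53) for GW2580 against 1 week. Its second probe set, with a mean of 13.5, gave 0.18, 0.12 and 0.30.

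The heavy chains have more probe sets than any other member, and these did not all read alike. All 4 probe sets of H2-K1 and 7 of the 9 of H2-D1 carry the suffix that Affymetrix gives to sets sharing probes with other transcripts, so signal cannot be assigned to 1 class I gene with certainty. The 4 H2-K1 probe sets had means from 8.67 to 14.0. GW2580 exceeded 1 week by 0.16 and 0.13 on the brightest pair, by 0.34 on the set at 13.2 and by 0.57 (limma unadjusted p 0.0776) on the dimmest. Of 8 H2-D1 probe sets past the filter, 5 were higher at 2 than at 1 week under vehicle, 4 were higher with GW2580 than with 2-week vehicle, and 6 were higher with GW2580 than at 1 week. Of all 23 member probe sets past the filter none passed when every probe set was tested, where 3.75% passed over time, 0.411% with GW2580 against 2-week vehicle and 0.118% with GW2580 against 1 week. At an unadjusted p under 0.05 the same fit had 4, 3 and 5 of the 23, against 21.7%, 18.1% and 13.6% of all probe sets. The H2-D1 set without the shared-probe suffix and past the filter, with a mean of 11.9, read 11.84 and 11.53 at 1 week, 11.97 and 12.38 at 2 weeks with vehicle, and 12.15 and 11.68 with GW2580. It differed by 0.49 over time (limma unadjusted p 0.0581) and by -0.26 with GW2580.

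**Figure D2:**
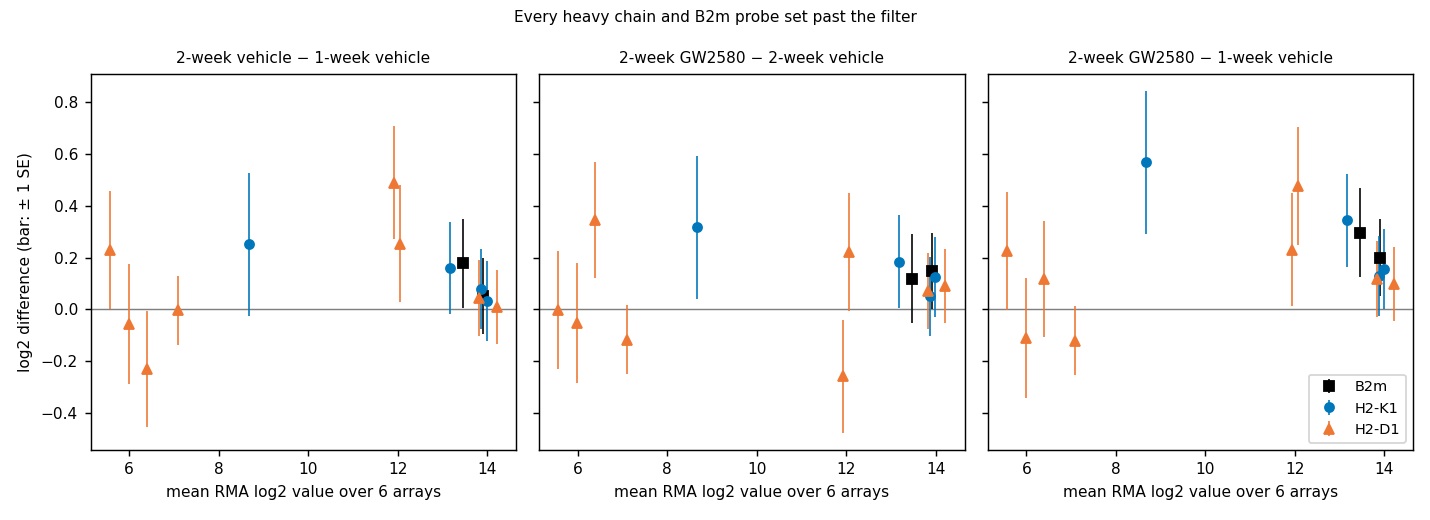
Log2 difference in each comparison (vertical axis, bars of 1 SE) against the mean RMA log2 value over the 6 arrays (horizontal axis) for the 2 B2m, 4 H2-K1 and 8 H2-D1 probe sets past the filter. The sets with means of 13.8 and above differ by at most 0.20 in all 3 comparisons, while sets between 5.57 and 12.1 spread from -0.26 to 0.57.

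The immunoproteasome subunits split. Psmb8 (LMP7), which replaces the standard subunit Psmb5, read 11.05 and 10.66 at 1 week, 11.30 and 11.63 at 2 weeks with vehicle, and 12.16 and 11.64 with GW2580. The 3 groups did not overlap for Psmb8, although the lowest GW2580 array and the highest 2-week vehicle array were 11.64 and 11.63. The difference was 0.61 (SE 0.22, limma adjusted p 0.134) over time, 0.43 (SE 0.22, limma adjusted p 0.34) for GW2580 against 2-week vehicle and 1.04 (SE 0.22, limma adjusted p 0.0786) for GW2580 against 1 week. The last is 2.06-fold, with a 95% interval of 0.55 to 1.54 on the log2 scale. A second Psmb8 probe set, at a mean of 4.75, was below the filter.

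Psmb9 (LMP2), which replaces Psmb6, read 10.31 and 9.87 at 1 week, 10.17 and 10.73 at 2 weeks with vehicle, and 11.48 and 10.79 with GW2580. The 2 vehicle groups overlapped, and both GW2580 arrays lay above all vehicle arrays. GW2580 exceeded 2-week vehicle by 0.69 (SE 0.28, limma adjusted p 0.247) and 1 week by 1.04 (SE 0.28, limma adjusted p 0.119), while the time difference was 0.36 (SE 0.28, limma adjusted p 0.501). The GW2580 difference varied with the array left out: without its replicate 1 Psmb9 exceeded 2-week vehicle by 0.34, and without replicate 2 by 1.03.

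Psmb10 (MECL-1), which replaces Psmb7, read 11.69 and 11.57 at 1 week, 11.11 and 10.94 at 2 weeks with vehicle, and 11.80 and 11.54 with GW2580. Both 2-week vehicle arrays were below the other 4. Psmb10 fell by 0.61 (SE 0.14, limma adjusted p 0.0468), or 1.53-fold, from 1 to 2 weeks. GW2580 was higher than 2-week vehicle by 0.65 (SE 0.14, 1.57-fold), which missed the threshold with a limma adjusted p of 0.0915. Against 1 week GW2580 differed by 0.04, with a 95% interval of -0.29 to 0.37. The call over time was narrow: its limma adjusted p was 0.0511 at a common 75th percentile, 0.0566 after a further quantile normalisation and 0.0675 with every probe set tested. It was 0.301 without replicate 1 of 1-week vehicle (difference -0.55), 0.103 without its replicate 2 (-0.67), 0.135 without replicate 1 of 2-week vehicle (-0.69) and 0.202 without its replicate 2 (-0.52). The inhibitor difference had a limma adjusted p of 0.0428 with a trended, robust variance. Psmb10 has 1 probe set, so no second set was there to compare.

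The standard subunits that the 3 replace stayed near 0 in all comparisons. Psmb5 differed by -0.07 over time, -0.07 with GW2580 against 2-week vehicle and -0.13 with GW2580 against 1 week (SE 0.13 each). The same differences were 0.05, -0.02 and 0.03 for Psmb6 and 0.08, 0.10 and 0.18 for Psmb7. Psme1, a subunit of the interferon-inducible PA28 proteasome activator, differed by -0.03, 0.20 and 0.17. Of 8 genes for standard subunits, activators and assembly that were tested, out of 9 listed, none passed in any limma comparison. Over all genes 6.45% passed over time, 0.367% for GW2580 against 2-week vehicle and 0.512% for GW2580 against 1 week. Against 23.6%, 18% and 17% of all genes, 2, 1 and 1 of the 8 had an unadjusted p under 0.05. Their smallest p belonged to Psme3 (PA28 gamma, -0.36) and Psme4 (PA200, 0.32) over time, to Psme4 (-0.48) and Psme1 for the inhibitor, and to Psme3 (-0.33) and the assembly factor Pomp (-0.19) for GW2580 against 1 week. The other Psme3 probe set differed by 0.15 over time, the opposite sign, and by -0.14 with GW2580 against 1 week.

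Tap1 and Tap2, the 2 chains of the peptide transporter, lie next to Psmb9 and Psmb8 in the MHC, in the order Psmb9, Tap1, Psmb8, Tap2 in the RefSeq gene table. The windows of Tap1 and Psmb9 run from the same region in opposite directions and share 275 of their 300 bases. The Tap1 window is printed as the region both genes use, and that of Psmb10, which lies on another chromosome, for comparison. Tap1 lies at chr17:34187306-34187605, plus strand, and Psmb10 at chr8:105938343-105938642, minus strand.
Tap1: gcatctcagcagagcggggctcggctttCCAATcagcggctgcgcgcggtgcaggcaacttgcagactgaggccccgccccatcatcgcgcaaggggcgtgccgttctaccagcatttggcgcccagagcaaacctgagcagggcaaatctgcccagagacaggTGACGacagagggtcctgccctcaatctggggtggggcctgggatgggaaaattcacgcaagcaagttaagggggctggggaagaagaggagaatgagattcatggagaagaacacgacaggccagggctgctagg
Psmb10: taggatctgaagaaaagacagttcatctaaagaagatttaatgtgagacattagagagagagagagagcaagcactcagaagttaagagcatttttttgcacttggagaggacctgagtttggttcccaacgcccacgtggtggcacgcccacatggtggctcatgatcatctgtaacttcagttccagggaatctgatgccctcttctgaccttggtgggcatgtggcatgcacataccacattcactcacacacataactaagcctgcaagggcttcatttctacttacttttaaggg
In capitals the Tap1 window holds an ATTGG match read on the other strand and a TGACG match. None of the 4 motifs was found in the windows of Psmb10 or Psmb8, and the Tapbp window has 2 matches to ATTGG.

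Tap1 read 8.81 and 8.38 at 1 week, 9.05 and 9.48 at 2 weeks with vehicle, and 9.64 and 8.998 with GW2580. Both 2-week groups were above 1 week and overlapped each other. Tap1 differed by 0.67 (SE 0.25, limma adjusted p 0.15) over time, 0.05 (95% interval -0.52 to 0.62) for GW2580 against 2-week vehicle and 0.72 (SE 0.25, limma adjusted p 0.199) for GW2580 against 1 week. Without replicate 1 of GW2580 or replicate 1 of 2-week vehicle the inhibitor difference was -0.27 and -0.16. Of its 3 other probe sets 1 passed the filter, at a mean of 5.95, and differed by -0.30 over time and 0.66 with GW2580 against 2-week vehicle. That set read 5.18 on replicate 2 of 2-week vehicle and 5.70 to 6.34 on the other arrays.

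Tap2 read 8.94 and 8.48 at 1 week, 9.0003 and 9.27 at 2 weeks with vehicle, and 9.68 and 9.19 with GW2580. Every 2-week array was above both 1-week arrays, and the 2-week groups overlapped. Tap2 differed by 0.43 (SE 0.22, limma adjusted p 0.28) over time, 0.30 (SE 0.22) with GW2580 against 2-week vehicle and 0.73 (SE 0.22, limma adjusted p 0.146) against 1 week.

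Tapbp (tapasin) read 11.54 and 11.45 at 1 week, 11.42 and 11.55 at 2 weeks with vehicle, and 11.69 and 11.73 with GW2580. The GW2580 arrays were the highest pair, by a small margin: 0.23 (SE 0.12, limma adjusted p 0.377) over 2-week vehicle and 0.21 (SE 0.12) over 1 week, with -0.01 over time. Its second probe set gave a GW2580 difference of 1.05 (limma unadjusted p 0.028). On that set replicate 2 of 2-week vehicle read 8.83, and every other array read above 10. Without that array, the one with the wide 3' to 5' gap in control transcripts, the second Tapbp set differed by 0.37 (SE 0.19) with GW2580 and the second Tap1 set by 0.20 (SE 0.23).

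Nlrc5, the coactivator, had the largest standard error of the members and the largest differences from 1 week. It read 7.78 and 7.29 at 1 week, 8.16 and 9.13 at 2 weeks with vehicle, and 9.10 and 8.14 with GW2580. Both 2-week groups were above the 1-week arrays and covered the same range. Nlrc5 exceeded its 1-week mean by 1.11 (SE 0.38, limma adjusted p 0.125, 95% interval 0.23 to 1.99) with vehicle and by 1.09 (SE 0.38, limma adjusted p 0.206) with GW2580. Between the 2-week groups it differed by -0.02, with a 95% interval of -0.90 to 0.85. The time difference was 0.63 without replicate 2 of 2-week vehicle, and the sign of the inhibitor difference turned with the array left out, from -0.50 to 0.46, and at a common 75th percentile.

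**Figure D3:**
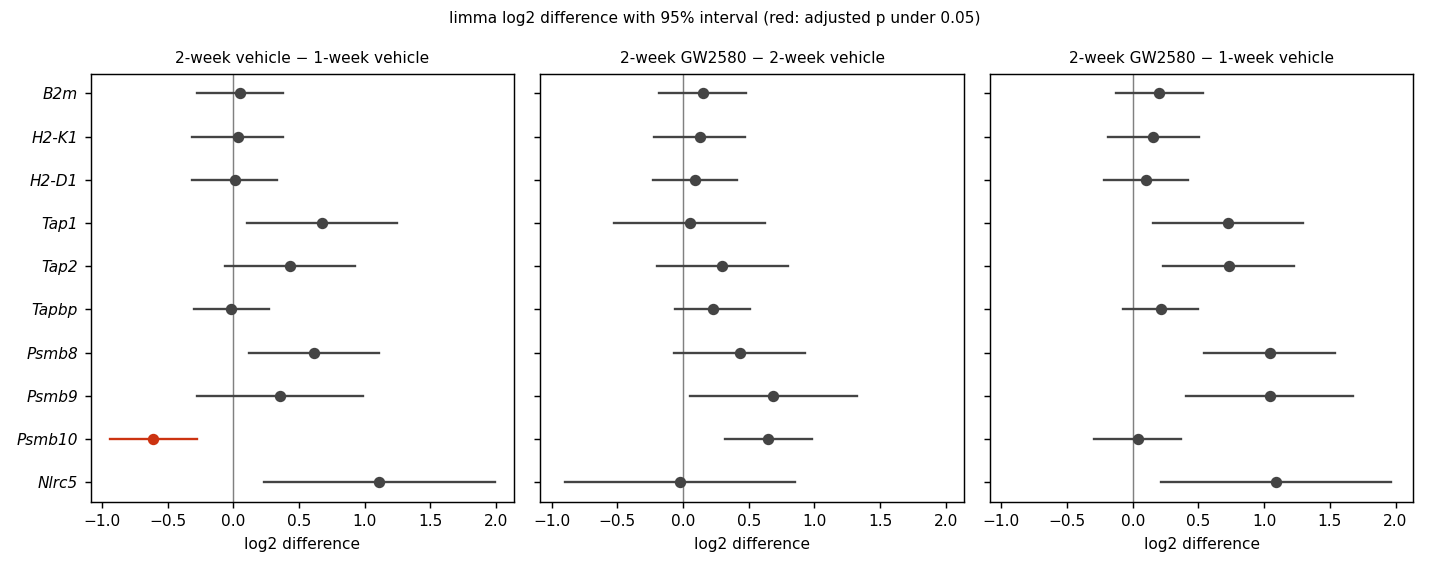
limma log2 difference of each member in the 3 comparisons, as a point with its 95% interval; red marks an adjusted p under 0.05. Only the Psmb10 time difference, at -0.61, is red, and in GW2580 against 1-week vehicle Tap1, Tap2, Psmb8, Psmb9 and Nlrc5 lie to the right of 0 with intervals that do not reach it.

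As a list the members read as follows. From 1 to 2 weeks under vehicle 8 of 10 differences were above 0, with a median of 0.20, against 52.9% above 0 and a median of 0.02 over all 13090 genes. Of the 10, Psmb10 passed in limma, as a lower gene, where 6.45% of all genes passed (844 genes) and 2.71% did so lower (355). At an unadjusted p under 0.05 there were 4 members, 3 of them higher, against 23.6% of all genes and 14.1% higher. In 4 members, Tap1, Tap2, Psmb8 and Nlrc5, both 2-week arrays lay above both 1-week arrays, which held for 31.5% of all genes. Without replicate 2 of 1-week vehicle 5 differences were above 0, with a median of 0.051 and 1 unadjusted p under 0.05, and without replicate 2 of 2-week vehicle 5, with a median of 0.037 and 1 such p. The 844 became 0 without replicate 1 of 1-week vehicle, 413 without its replicate 2, and 115 and 157 without replicates 1 and 2 of 2-week vehicle, so each call over time given here ended without that first array.

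For GW2580 against 2-week vehicle 9 of 10 differences were above 0, with a median of 0.19, against 41.7% and a median of -0.05 over all genes. None of the 10 passed in limma, where 0.367% of genes did, and 2 had an unadjusted p under 0.05 (Psmb9 and Psmb10, both higher), against 18% of genes in either direction and 5.36% higher. Without replicate 1 of GW2580, 6 of 10 differences were above 0, with a median of 0.038. There was 1 unadjusted p under 0.05 without that array or replicate 1 of 2-week vehicle, and 3 were under it without replicate 2 of GW2580. In 4 members, Tapbp, Psmb8, Psmb9 and Psmb10, both GW2580 arrays lay above both vehicle arrays, which held for 18.3% of all genes. The 48 genes behind 0.367% became 0 without either 1-week array, replicate 2 of 2-week vehicle or replicate 1 of GW2580, 6 without replicate 1 of 2-week vehicle and 167 without replicate 2 of GW2580.

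For GW2580 against 1-week vehicle all 10 differences were above 0, with a median of 0.47, against 45.8% and a median of -0.02 over all genes. In 6 of 10 members both GW2580 arrays exceeded both 1-week arrays, which 18.8% of all genes did, and 5 had an unadjusted p under 0.05, all higher, against 17% of genes in either direction and 6.64% higher. None passed after adjustment, where 0.512% of genes did. Without replicate 1 of GW2580 or replicate 2 of 1-week vehicle there were 2 members with an unadjusted p under 0.05, and 8 and 9 differences above 0. The 67 genes behind 0.512% became 0 without replicate 1 of 1-week vehicle or replicate 2 of GW2580, 38 without replicate 2 of 1-week vehicle, 24 without either 2-week vehicle array and 169 without replicate 1 of GW2580. The 3 comparisons share arrays in pairs, so their values for a gene are not independent of each other. The members were chosen with results of these data known, so no test of the list was made.

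The members also varied together between the arrays of a group. Replicate 1 exceeded replicate 2 in all 10 members at 1 week and in 9 of 10 with GW2580 (Tapbp apart), and replicate 2 exceeded replicate 1 in 9 of 10 in the 2-week vehicle group (Psmb10 apart). Over all genes tested replicate 1 was the higher in 45.1%, 39.3% and 42.4% of these groups. The mean gap over the members was 0.29 at 1 week, 0.43 with GW2580 and -0.28 in the 2-week vehicle group. Markers of fibroblasts and smooth muscle (12 of 12 with a probe set, 10 past the filter) had a mean of 7.53 and 6.78 at 1 week, 6.57 and 6.60 in the 2-week vehicle group and 6.87 and 6.37 with GW2580. This is the members' order in all 3 groups, by a small margin in the 2-week vehicle group. Lung epithelial markers (11 of 12 with a probe set, all 11 past the filter) had a mean of 7.48 and 7.15 at 1 week, 7.01 and 7.03 in the 2-week vehicle group and 7.25 and 6.39 with GW2580, again that order. So did the markers of the labelled epithelium (12 of 12 with a probe set, 8 past the filter), at 7.18 and 6.92, then 6.87 and 6.93, then 7.06 and 7.03. The lymphocyte, neutrophil, macrophage and endothelial list means did not have that order in all 3 groups. Gene by gene 6 of the 10 fibroblast and 3 of the 11 lung markers had that order in all 3 groups. So did 3 of 8 markers of the labelled epithelium, 2 of 8 for lymphocytes and NK cells and 2 of 7 for neutrophils. For macrophages it was 1 of 19 and for endothelium 1 of 6. The share of all genes with that order was not counted. The 3 lung markers are secretoglobins of the airway: Scgb1a1 read 11.31 and 9.59, then 6.49 and 8.08, then 10.91 and 7.59. Scgb3a2 read 8.12 and 6.51, then 4.71 and 5.40, then 7.88 and 5.52, and Scgb3a1 ranged from 5.83 to 7.79. The part of these markers in the members' values was not tested. In sorted cells measured in bulk, more expressing cells and more RNA per cell cannot be told apart.

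White blood cells carry much class I and immunoproteasome RNA, so their markers are given beside the members. Ptprc (CD45), carried by all leukocytes, fell by 0.61 (SE 0.13, limma adjusted p 0.0387) from 1 to 2 weeks, while Psmb8, Tap1 and Nlrc5 read higher there, and it differed by -0.12 with GW2580 against 2-week vehicle. Some other leukocyte markers were higher at 2 weeks, as those members were, without passing. Cd68, a lysosomal protein of macrophages, read 9.66 and 10.15 at 1 week, 10.76 and 10.998 in the 2-week vehicle group and 9.92 and 10.99 with GW2580 (time difference 0.98, limma adjusted p 0.115). Ctss, a protease of antigen-presenting cells, differed over time by 0.57 (limma adjusted p 0.159). Of the 19 macrophage markers past the filter 9 were higher at 2 weeks with vehicle and 4 were higher with GW2580 than with 2-week vehicle. These counts were 0 and 6 of 8 for lymphocytes and NK cells, and 4 and 5 of 7 for neutrophils. Over all genes 52.9% and 41.7% were higher. The macrophage and monocyte list (20 of 21 with a probe set, 19 past the filter) had a mean of 7.14 and 7.20 at 1 week, 7.11 and 7.29 in the 2-week vehicle group and 6.82 and 7.27 with GW2580. On replicate 1 of GW2580 it was at its lowest, where 9 of the 10 members were above replicate 2. Lymphocyte and NK cell markers (11 of 14 with a probe set, 8 past the filter) had list means from 5.39 to 5.68. The 8 had means from 5.18 (Cd2) to 6.63 (Cd3e). The B cell genes Ms4a1 and Cd79b and the T cell gene Cd3g were below the filter. Endothelial markers (10 of 10 with a probe set, 6 past the filter) had list means from 5.51 to 5.68. The 6 had means from 5.44 (Cdh5) to 8.62 (Plvap), and Pecam1, Tek, Vwf and Emcn were below the filter. Neutrophil markers (10 of 11 with a probe set, 7 past the filter) had list means from 5.67 to 6.12, but S100a8, a calcium-binding protein of neutrophils, read 7.77 and 8.37 at 1 week, 9.46 and 10.20 in the 2-week vehicle group and 6.93 and 9.14 with GW2580. Its partner S100a9 read 6.38 and 7.28, then 7.48 and 8.37, then 5.75 and 8.60. On the GW2580 arrays both were lower on replicate 1, where 9 of the 10 members were higher. Apart from Ptprc over time, the calls on these lists were the surfactant genes Sftpa1 and Sftpd: Sftpd rose over time and both fell with GW2580. The secretoglobins had larger differences in the other direction that did not pass, with Scgb1a1 at -3.16 over time (limma adjusted p 0.109) and 1.97 with GW2580 (limma adjusted p 0.356). The part of other cells in the members' levels was not tested.

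Peptide-loading helpers of the endoplasmic reticulum and peptide-trimming enzymes had differences between -0.40 and 0.63, and no test compared them with the members. Of 11 loading and trimming genes tested none passed in limma in any comparison. An unadjusted p under 0.05 was held by 2, 1 and 0, against 23.6%, 18% and 17% of all genes. The list's medians were -0.11 over time, 0.08 for GW2580 against 2-week vehicle and -0.10 for GW2580 against 1 week. Calr (calreticulin), a chaperone of empty class I molecules, read 12.44 and 12.34, then 11.89 and 12.15, then 12.69 and 12.61. It was lowest in the 2-week vehicle group, as Psmb10 was, and differed by -0.37 (SE 0.14) over time and by 0.63 (SE 0.14, limma adjusted p 0.0904) with GW2580 against 2-week vehicle. Both other Calr probe sets gave 0.64 for that difference. Pdia3 (ERp57), its oxidoreductase partner, differed by -0.17 over time and 0.25 with GW2580, and the chaperone gene Hspa5 by -0.40 and 0.27, the same signs as Calr and Psmb10. For GW2580 against 1 week the smallest p were those of Calr (0.26) and the peptidase gene Thop1 (-0.30).

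Among other class I and class I-like heavy chains, 11 of 27 listed genes were tested. Hfe, an iron-regulatory class I-like protein, rose by 0.85 (SE 0.16, limma adjusted p 0.0297) from 1 to 2 weeks and Fcgrt, the neonatal Fc receptor, by 0.825 (SE 0.19, limma adjusted p 0.0418). Procr, the endothelial protein C receptor, fell by 0.91 (SE 0.16, limma adjusted p 0.0249). None of these 3 presents peptides to T cells. The other 8 did not pass, and the median was 0.03. Over all genes 6.45% passed in this comparison. H2-Q5, a non-classical heavy chain, differed by -0.75 over time (limma adjusted p 0.0585) and by 0.55 with GW2580 against 2-week vehicle, but its other probe set differed by 0.45 over time. No gene of this list passed in limma with GW2580, and 2 and 6 had an unadjusted p under 0.05 against 2-week vehicle and 1 week. The shares of all genes with such a p were 18% and 17%. The lipid-presenting Cd1d1 differed by -0.49 (SE 0.15) from 2-week vehicle, and against 1 week Fcgrt differed by 1.00 and Hfe by 0.84.

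Of 25 regulators of class I transcription tested 7 differences over time were above 0, with a median of -0.21. None passed in limma, and 11 had an unadjusted p under 0.05. The shares of all genes were 52.9% above 0 and 23.6% with such a p. Irf1, an interferon-induced transcription factor for class I genes, read 10.25 and 10.12, then 9.50 and 9.63, then 10.43 and 9.84. It was lowest on the 2-week vehicle arrays, with differences of -0.62 (SE 0.19, limma adjusted p 0.0989) over time and 0.57 (SE 0.19, limma adjusted p 0.191) with GW2580. Ifngr2, a chain of the interferon-gamma receptor, differed by -0.73 (limma adjusted p 0.0511) and 0.57. Socs1, a feedback inhibitor of interferon signalling, differed by -1.41 (SE 0.35, limma adjusted p 0.0531) and 0.84. Socs3, another such inhibitor, and Rfxank, a subunit of the RFX factor that binds class I promoters, differed by 0.77 and 0.49 with GW2580 against 2-week vehicle. With GW2580, 16 of 25 differences were above 0 against 2-week vehicle (41.7% over all genes), with a median of 0.20. None passed in limma there or against 1 week. An unadjusted p under 0.05 was held by 7 and 4, against 18% and 17% of all genes. Against 1 week the median was 0.0025, and the smallest p were those of Ezh2, a histone methyltransferase (-0.53), and Ifnar2, an interferon receptor chain (0.65). Both other Ifnar2 probe sets gave less, 0.25 and 0.11, and the other Rfxank set gave 0.13 with GW2580 against 2-week vehicle.

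Interferon-gamma response genes had a median of -0.34 over time, with 3 of 17 above 0, and of 0.64 for GW2580 against 2-week vehicle, with 17 of 17 above 0. None passed in either comparison in limma, and 4 and 3 had an unadjusted p under 0.05. Such a p was held by 23.6% and 18% of all genes, and 52.9% and 41.7% of all genes were above 0. For GW2580 against 2-week vehicle the list's count above 0 was 10 of 17, with a median of 0.02, without replicate 1 of GW2580. It was 15 of 17, with a median of 0.35, without replicate 1 of 2-week vehicle. Without replicate 2 of GW2580 the median was 1.16. The chemokine gene Cxcl10 differed by -1.99 (SE 0.48, limma adjusted p 0.0518) over time and 1.08 (SE 0.48) with GW2580. Against 1 week, the smallest p were those of the GTPase gene Irgm2 (0.66) and Cxcl10 (-0.90), and the median was 0.13. The time median was -0.13 without replicate 1 of 1-week vehicle and -0.15 without replicate 1 of 2-week vehicle.

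Type I interferon response genes had a median of -0.10 over time, 0.49 for GW2580 against 2-week vehicle and 0.34 for GW2580 against 1 week. Of 18 tested Cmpk2, a nucleotide kinase gene, fell by 0.62 (SE 0.15, limma adjusted p 0.0495) over time and the other 17 did not pass. Over all genes 6.45% passed over time and 2.71% did so lower. The other Cmpk2 probe set differed by -0.47 (limma adjusted p 0.333 over all probe sets). Cmpk2 read 8.39 and 8.44 at 1 week, 7.98 and 7.62 in the 2-week vehicle group and 8.47 and 8.38 with GW2580, so it was lowest in the same group as Psmb10. With GW2580 against 2-week vehicle none passed in limma, 11 had an unadjusted p under 0.05 and 16 of 18 were above 0. Over all genes 0.367% passed, 18% had such a p and 41.7% were above 0. Oasl2, an oligoadenylate synthetase family gene, differed by 1.05 (SE 0.21, limma adjusted p 0.079) and Cmpk2 by 0.63. Without replicate 1 of GW2580 the median was 0.29, with 15 of 18 above 0, and without replicate 2 of GW2580 it was 0.62. The time median was -0.19 without replicate 1 of 1-week vehicle, -0.028 without its replicate 2 and -0.27 without replicate 2 of 2-week vehicle. Against 1 week Dhx58, an RNA sensor gene, and Irf7 differed by 0.64 and 0.78.

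MHC class II genes, which mark antigen-presenting cells, differed by -0.19 to 0.19 over time. With GW2580 against 2-week vehicle they ranged from -0.56 to 0.19, and 2 of 8 were above 0 (41.7% over all genes). Of 8 tested none passed in limma. An unadjusted p under 0.05 was held by 0, 1 and 2, against 23.6%, 18% and 17% of all genes. The medians were 0.05 over time, -0.13 for GW2580 against 2-week vehicle and -0.08 for GW2580 against 1 week. Ciita, the class II counterpart of Nlrc5, read 5.08 and 5.28, then 5.34 and 5.40, then 4.68 and 4.93, near the filter. It differed by 0.19 (SE 0.14) over time, where Nlrc5 differed by 1.11, and by -0.56 (SE 0.14, limma adjusted p 0.111) with GW2580 against 2-week vehicle. Cd74, the class II invariant chain, read between 9.24 and 9.62 on all arrays. H2-Aa, a class II alpha chain, differed by -0.42 with GW2580 against 2-week vehicle and H2-DMa, which helps load class II, by -0.33 with GW2580 against 1 week.

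**Figure D4:**
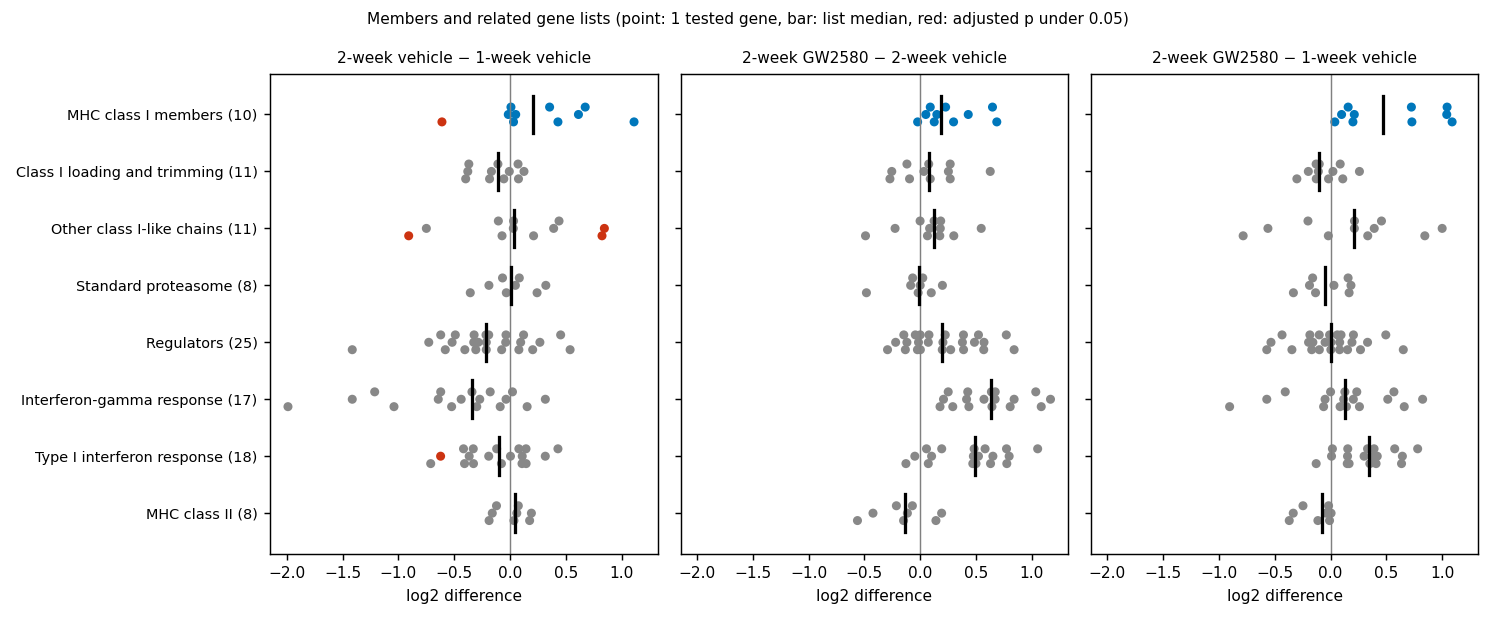
Log2 differences of the 10 members and of the 7 related lists in the 3 comparisons, a point for each tested gene, a black bar at each list's median and red for an adjusted p under 0.05; the number tested is in parentheses. In GW2580 against 2-week vehicle the interferon-gamma points all lie right of 0 with a median of 0.64, while the standard proteasome list is centred on -0.01.

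Genes elsewhere on the array tracked the members closely over the 6 arrays. The measure was Pearson's r between a gene and the mean of the members' centred log2 values, over 13080 other genes; with so many genes and 6 arrays in 3 groups, high values are common and are given as a description. Plaat3, a phospholipase and acyltransferase gene, had r = 0.994 and read 8.35 and 7.29 at 1 week, 8.48 and 9.23 in the 2-week vehicle group and 10.28 and 9.02 with GW2580. The next were Ybx2 (0.9935), Serinc4 (0.989), Rrh (0.9759), Gas6 (0.9757), a ligand of TAM receptor kinases, and Mpp2 (0.9743). Ybx2, Serinc4, Rrh and Mpp2 had means of 4.97 to 6.32, nearer the filter than most members.

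Psmb10 alone was matched most closely by other genes. They were C130075A20Rik (r = 0.9846), Phxr4 (0.9828), Wipf2 (0.9827), Igf2bp1 (0.9824), 9630015K15Rik (0.9816) and Prss50 (0.981). C130075A20Rik read 7.46 and 7.42 at 1 week, 5.77 and 5.55 in the 2-week vehicle group and 7.62 and 7.01 with GW2580. Wipf2, an actin regulator gene, read 8.11 and 8.06, then 7.73 and 7.43, then 8.31 and 8.05. None of these 6 is among the 6 nearest to the members' mean.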

How the data were processed

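Arrays from 6 samples in 3 groups of 2 were compared, grouped by their titles. The values are log2 expression values deposited by the authors as a table of 45101 probe sets ; per the submitters' processing notes RMA was the method. RMA subtracts background, gives arrays a common distribution and summarises probes per probe set, so a shift shared by most genes would not be seen. The sources used here do not give its version.

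Leaving out 64 control probe sets, 34945 had 1 symbol, 932 several and 9160 none in the platform annotation. By gene identifier 34741 matched the RefSeq gene table, and 0 members changed symbol. The brightest probe set led for each gene, and genes under the 40th percentile of mean signal (4.97) were left out. Tests used limma 3.58.1 in R 4.3.3: a mean per group over 6 arrays, eBayes without trend, 3 residual and 4.97 prior degrees of freedom, Benjamini-Hochberg adjustment over 13090 genes, called at 0.05. Other probe sets were fitted on all 27022 probe sets past the filter, with adjustment over those. With 2 arrays against 2 the smallest two-sided permutation p is 0.333, and no such test was run. The procedure was tested on simulated data. Their noise was drawn independently for each gene and array, so variation shared between genes was not covered.

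The members and lists were chosen with earlier results of these data known, and the 4 promoter motifs after reading the windows. Named genes were all members, up to 4 called genes of each related list or else the 2 with the smallest p, and Irf1, Psmb5, Psmb6, Psmb7, Psme1, Ptprc and Ciita; Psme2 was not tested, and 1 further gene of the rule is not reported here. The 6 genes most like the members, and most like Psmb10, were taken by Pearson's r. Sftpa1, Sftpd, Scgb1a1, Scgb3a1, Scgb3a2, Cd68, Ctss, S100a8, S100a9, Pecam1, Tek, Vwf, Emcn, Cdh5, Plvap, Ms4a1, Cd79b, Cd3g, Cd3e, Cd2, Krt8, Krt18, Cdh1 and Esrp1 were named after their values were seen. Alternatives changed scaling, filter, probe set rule, variance model, arrays fitted and replicate block.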

Additional observations from a re-analysis of the deposited data

How the results depend on the processing

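The number of arrays limits the precision. Psmb10 was the sole member called over time, and 0 members were called there at a common 75th percentile, after a further quantile normalisation or with every probe set tested; leaving out an array gave 0 to 1. For GW2580 against 2-week vehicle 1 member, Psmb10, was called with trended, robust variance. For GW2580 against 1 week 0 members were called under every alternative run.

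All genes called over time numbered 0 to 1059 with an array left out (844 with all). For GW2580 against 2-week vehicle (48) they numbered 0 after a further quantile normalisation and with only the 4 arrays compared, 74 with no filter, 111 on every probe set, 131 with trended, robust variance, and 0 to 167 with an array left out. For GW2580 against 1 week (67) they numbered 32 on every probe set, 139 with trended, robust variance, 24 with the 4 arrays, and 0 to 169 with an array left out. The cause was not tested.

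With the replicate number as a block, 154 genes were called for GW2580 against 2-week vehicle and 182 against 1 week, 1223 over time, and the same numbers of members (0, 0 and 1). The numbers are not known to pair the samples: deviations of same-numbered arrays correlated at 0.29 between 1-week vehicle and GW2580 and at 0.0022 and 0.0094 for the other pairs.

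Small differences changed sign. Over time H2-K1 was -0.0035 and H2-D1 -0.027 at a common 75th percentile, and -0.034 and -0.018 after a further quantile normalisation. With an array left out, B2m ranged from -0.032 to 0.14, H2-K1 from -0.065 to 0.13, H2-D1 from -0.065 to 0.083 and Tapbp from -0.079 to 0.050. For GW2580 against 2-week vehicle Nlrc5 was 0.0027 and 0.056 under those scalings. With an array left out H2-K1 ranged from -0.027 to 0.28, H2-D1 from -0.043 to 0.22, Tap1 from -0.27 to 0.37 and Nlrc5 from -0.50 to 0.46. Against 1 week H2-D1 ranged from -0.034 to 0.23 and Psmb10 from -0.092 to 0.17.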

Other observations

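A probe set that the annotation gives to both H2-Q5 and H2-K1 differed from 1 week by more than any H2-K1 set, in both 2-week groups. It read 10.02 and 9.60 at 1 week, 10.83 and 11.16 at 2 weeks with vehicle, and 11.38 and 10.20 with GW2580. Every 2-week array lay above both 1-week arrays on it, and the difference over time was 1.18 (SE 0.36, limma adjusted p 0.115 over all probe sets). GW2580 differed from 2-week vehicle there by -0.20. A set given to both H2-K1 and H2-D1, with a mean of 11.6, differed by 0.20 over time and by 0.16 with GW2580. Which gene either signal comes from cannot be read from the annotation.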
